A study of Mus musculus with 7 samples.

Results

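The 42 genes described here are cell cycle and proliferation genes, taken by symbol from a list of such genes, and all 42 were found among the 49164 gene rows with counts. They were divided by the known roles of their proteins into 18 genes of the G1/S transition and S phase and 24 genes of mitosis. The polyA RNA came from soft tissue (muscle and soft callus) next to a 1.5-mm hole drilled into the mandible of mice, collected at day 5. Set against each other are Il17af-/- animals, which lack the genes of interleukins 17A and 17F (IL17KO, 3 libraries), and littermates labelled WT (4 libraries). Every mouse in both groups had the defect, so there is no uninjured tissue to set the levels against. The labels give no age or sex, and they do not say whether a library is 1 animal, so that p-values measure the spread between these libraries.

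A dividing cell first commits to replication, when E2F transcription factors switch on cyclin E, the MCM helicase and the enzymes that make deoxynucleotides. It then condenses and separates its chromosomes under the control of CDK1 with cyclins A and B, Polo-like and Aurora kinases and the anaphase-promoting complex. Most of these genes are silent in resting cells, and their mRNAs are therefore used as a measure of how much of a tissue is cycling. In a healing jaw wound the cycling cells can be fibroblasts, periosteal and muscle progenitors, endothelial cells and immune cells, while muscle fibres have left the cycle.

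Libraries held 18539904 to 26271176 counts. Levels are given as CPM, that is counts relative to library sizes that TMM had corrected for composition, and are listed by replicate number, 1 to 3 for IL17KO and 1 to 4 for WT. The lowest member count in any library was 126, so none of the 42 was near the detection floor of 3 counts. No library held a count of Il17a. For Il17f there were 1, 1 and 0 counts in IL17KO and 0 in each WT library, so its only counts lay in libraries labelled IL17KO. At such counts the deleted genes could not check the genotype labels. IL17KO replicate 3 and WT replicate 3 stood farthest apart on a principal component analysis, at opposite ends of an axis with 50.1% of the variance, and the results for the members and for the gene lists are given with and without them. The summed level of 25 skeletal muscle fibre genes ran over 43010 to 130100 CPM in IL17KO and 22460 to 69760 CPM in WT. By these sums the muscle named in the labels was present in every library. None of the 25 genes was at 0 in all 7 libraries.

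The promoters of the 2 phases differed in how often they carried certain sequence elements, which are shown because they mark the known division between E2F-driven and late cell cycle genes. RefSeq promoter windows of the GRCm38.p6 build, from 250 bases before to 50 after the start, were at hand for 35 of the 42 members, 16 of S phase and 19 of mitosis. The E2F element was searched as TTTCCCGC, TTTCGCGC, TTTGCCGC or TTTGGCGC, and the cell cycle homology region (CHR) as TTTGAA, on both strands, with overlapping matches kept. An E2F element was found in 6 of 17 S phase promoters (35.3%), in 1 of 20 mitosis promoters (5%) and in 2.26% of all 32851 promoters. The 6 belong to Cdc6, Cdt1, Mcm3, Mcm5, Mcm6 and Mcm7, all genes of replication origin licensing and firing. No match was found for G1/S regulators or for genes of nucleotide synthesis. A CHR element was found in 15 of 20 mitosis promoters (75%), in 2 of 17 S phase promoters (11.8%) and in 17.9% of all promoters. CCAAT, searched alike, was in 18 of 20 mitosis promoters (90%), 10 of 17 S phase promoters (58.8%) and 37.4% of all. These are counts of letters in a window and do not show that a factor binds there. The stretches below end at the base before the start, with E2F and CHR letters of either strand in capitals.
Mcm5: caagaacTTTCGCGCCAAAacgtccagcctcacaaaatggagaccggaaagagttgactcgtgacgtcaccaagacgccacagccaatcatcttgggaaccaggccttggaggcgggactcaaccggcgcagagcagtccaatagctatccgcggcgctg
Mcm6: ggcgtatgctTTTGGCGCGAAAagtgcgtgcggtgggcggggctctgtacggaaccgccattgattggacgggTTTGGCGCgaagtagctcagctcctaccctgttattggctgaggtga
Cdk1: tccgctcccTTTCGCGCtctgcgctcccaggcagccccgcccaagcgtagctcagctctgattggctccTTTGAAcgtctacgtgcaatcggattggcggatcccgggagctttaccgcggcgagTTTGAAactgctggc
Cdc20: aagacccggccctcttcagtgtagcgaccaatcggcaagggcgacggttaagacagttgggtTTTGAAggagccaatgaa
Top2a: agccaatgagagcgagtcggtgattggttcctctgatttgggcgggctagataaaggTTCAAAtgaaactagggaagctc
Ube2c: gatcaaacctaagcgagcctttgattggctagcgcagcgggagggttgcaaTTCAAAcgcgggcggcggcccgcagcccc
They lie at chr8:75109349-75109508 (plus strand) for Mcm5, chr1:128359706-128359825 (minus strand) for Mcm6, chr10:69352913-69353052 (minus strand) for Cdk1, chr4:118437344-118437423 (minus strand) for Cdc20, chr11:99024190-99024269 (minus strand) for Top2a and chr2:164769849-164769928 (plus strand) for Ube2c, all in GRCm38.p6. Mcm5 and Mcm6, S phase genes, show E2F letters alone, with matches on both strands that overlap. Cdk1 shows an E2F match upstream and a pair of CHR matches, while Cdc20, Top2a and Ube2c show a CHR match and no E2F match.

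Between the genotypes, 0 of the 42 members passed the test. The values of 39 members were lower on average in IL17KO than in WT, by a median log2 fold change of −0.14, but the libraries of each group spread over a wider range than the distance between the groups. By edgeR's quasi-likelihood test 0 members had an adjusted p under 0.05 over 15399 tested genes (smallest adjusted p = 0.987), against 0.156% of all tested genes (0.0779% lower and 0.0779% higher), and 0 had an unadjusted p under 0.05, against 3.04%. DESeq2 and limma voom with library weights also called 0, with 0 at an unadjusted p under 0.05 by either. The groups overlapped for all 42 members, where 3.89% of all tested genes had groups that did not overlap. All 42 passed the filter on low counts.

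The fold changes ran from −0.29 (Mcm4) to 0.14 (Ube2c) on the log2 scale, with standard errors of 0.14 to 0.35. A log2 fold change below 0 was found for 49.4% of all tested genes, whose median was 0.00, against 39 of 42 members. Members move together from library to library, so the 39 are not 39 separate observations. All 42 of the 95% intervals held 0, and their bounds reached from −1.01 to 0.63. The largest fold between group means was 1.22. For all 42 members the fold between the highest and lowest library of the wider group was larger than the fold between the group means. A range of extremes tends to exceed a difference of means, and the share over all tested genes was not counted. The comparison is therefore no trait of the members. Without WT replicate 3, 22 of 42 members were below 0 (median −0.0043), and without IL17KO replicate 3, 15 were (median 0.05). With both left out, 1 of 42 was below 0 and the median was 0.20. By edgeR 0 members then passed the adjusted threshold. Foxm1, Kif23 and Tk1 had an unadjusted p under 0.05, beside 515 of all 15561 genes tested in that setting. This pair of libraries was chosen after seeing the data. IL17KO replicate 3 was the lowest of its group for 40 members and WT replicate 3 the highest of its group for 41. Leaving both out therefore had to move the fold changes upward. Without IL17KO replicate 2, 41 were below 0 (median −0.39), and by edgeR 0 passed the adjusted threshold (smallest adjusted p = 0.571). Bub1b, Cdc20, Mcm2, Mcm4 and Tpx2 then had an unadjusted p under 0.05, beside 1225 of all 15510 genes tested in that setting. The size and the side of the difference therefore rest on single libraries.

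**Figure D1:**
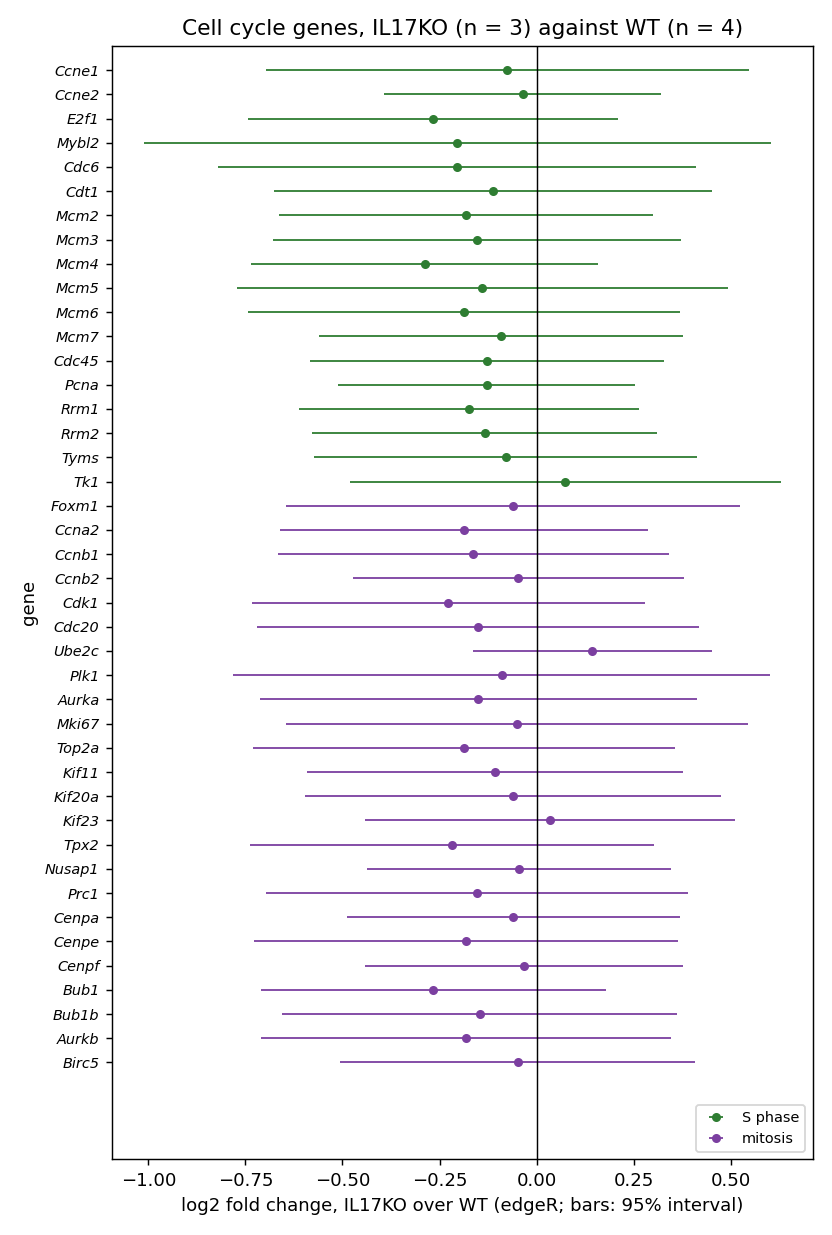
Log2 fold change of each of the 42 members, IL17KO over WT, with its 95% interval by edgeR (x axis), for S phase genes in green and mitosis genes in purple. All 42 intervals cross 0, and 39 of the 42 points lie left of it.

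Against this, the members differed among libraries of the same genotype in 1 shared pattern. IL17KO replicate 3 was the lowest of the 7 libraries for 38 of 42 members, against 25.1% of all tested genes. The highest library was WT replicate 3 for 30 members and IL17KO replicate 2 for 11, and these 2 libraries together were highest for 37.7% of all tested genes. Within IL17KO the order replicate 2, replicate 1, replicate 3 held for 40 of 42 members, and replicate 2 exceeded replicate 3 by a median of 1.81-fold, from 0.847-fold (Ube2c) to 2.53-fold (Plk1). Within WT, replicate 3 was the highest for 41 of 42, at a median of 1.43 times the median of the other WT libraries.

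**Figure D2:**
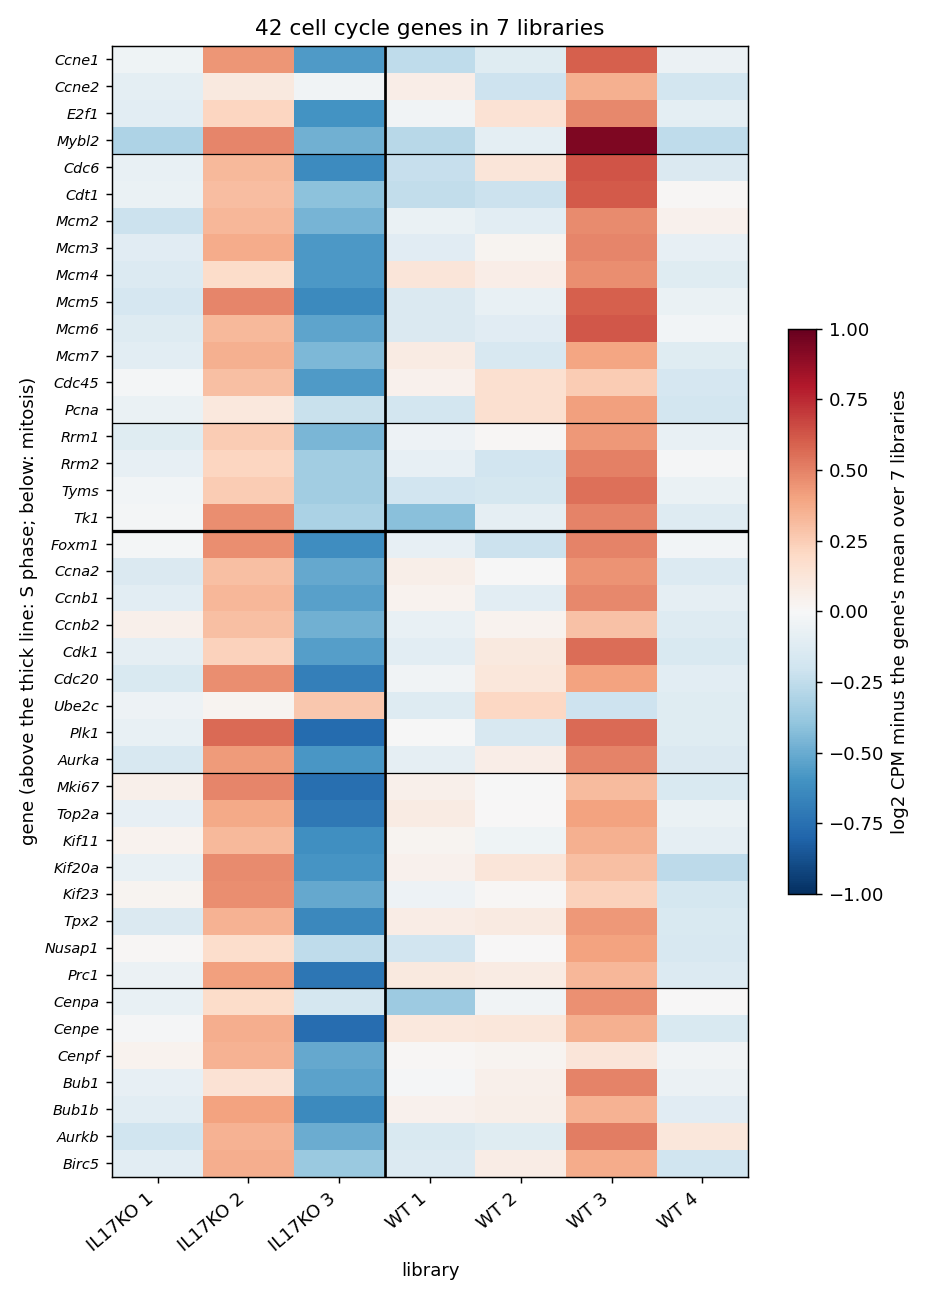
Each row is a member and each column a library, IL17KO left of the vertical line and WT right of it; colour gives log2 CPM minus the mean of that gene over the 7 libraries. The S phase genes stand above the thick line and the mitosis genes below it. IL17KO replicate 3 is blue for nearly every gene, IL17KO replicate 2 and WT replicate 3 are red, and Ube2c runs the other way.

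Of the 4 regulators of the G1/S transition, all had values somewhat lower on average in IL17KO, and 0 passed the test. E2f1, the transcription factor that starts the S phase programme, stood at 21.7, 27.2 and 15.5 CPM in IL17KO, against 22.9, 25.97, 32.6 and 21.9 CPM in WT. IL17KO replicate 3 was the lowest and WT replicate 3 the highest, and the groups overlapped. Its log2 fold change was −0.27 ± 0.21 (SE), with a 95% interval of −0.74 to 0.21 (edgeR adjusted p = 0.987). Ccne1, cyclin E1, which activates CDK2, was at 10.1, 14.1 and 7.01 CPM in IL17KO, against 8.68, 9.56, 15.7 and 9.93 CPM in WT. Ccne2, the second E-type cyclin, averaged 18.1 ± 1.27 CPM in IL17KO (SD, n = 3) and 18.5 ± 3.503 CPM in WT (SD, n = 4), with the narrowest spread within IL17KO of the 42 members. Its lowest library was WT replicate 2, not IL17KO replicate 3, and 17.4% of its annotated exon bases overlap Ints8 on the other strand. Mybl2, an E2F target that goes on to activate late cell cycle genes, was at 8.71, 15.1 and 7.71 CPM in IL17KO, against 8.87, 10.04, 20.6 and 9.01 CPM in WT. WT replicate 3 had 2.28 times the median of the other WT libraries, more than for any other member.

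The 10 genes of replication origin licensing and firing all had negative fold changes, and 0 passed the test. The MCM proteins 2 to 7 form the ring helicase that opens DNA. Mcm6 stood at 60.1, 82.2 and 45.5 CPM in IL17KO, against 59.2, 60.7, 101 and 64.4 CPM in WT, with a log2 fold change of −0.19 ± 0.25 (SE), with a 95% interval of −0.74 to 0.37 (edgeR adjusted p = 0.987). Mcm4 was at 47.2, 58.7 and 34.9 CPM in IL17KO, against 56.2, 54.2, 71.3 and 47.5 CPM in WT, and its log2 fold change was −0.29 ± 0.20 (SE), with a 95% interval of −0.73 to 0.16 (edgeR adjusted p = 0.987). IL17KO replicate 3 was the lowest library for all 10 genes, and the groups overlapped for each. Mcm5 was at 34.7, 54.7 and 25.1 CPM in IL17KO, against 35.2, 37.1, 58.9 and 37.3 CPM in WT, where WT replicates 1, 2 and 4 and IL17KO replicate 1 lay close together. Mcm2, Mcm3 and Mcm7 had group means of 37.5 ± 10.9 CPM in IL17KO (SD, n = 3) and 42.5 ± 8.45 CPM in WT (SD, n = 4), 46.1 ± 14.97 CPM in IL17KO (SD, n = 3) and 51.2 ± 10.6 CPM in WT (SD, n = 4), and 39.9 ± 11.3 CPM in IL17KO (SD, n = 3) and 42.6 ± 7.84 CPM in WT (SD, n = 4). Every MCM gene thus had the same order of libraries at its extremes, with IL17KO replicate 3 lowest and WT replicate 3 highest. Cdc6, which loads the MCM ring together with the product of Cdt1, was at 8.21, 10.8 and 5.59 CPM in IL17KO, against 7.35, 9.39, 13.4 and 7.82 CPM in WT. Cdt1 was at 10.9, 14.2 and 8.601 CPM in IL17KO, against 9.65, 9.88, 17.5 and 11.5 CPM in WT. Both loading genes had their extremes in the same libraries as the MCM genes. Cdc45, part of the active helicase, was at 15.98, 19.9 and 10.95 CPM in IL17KO, against 16.7, 18.03, 19.3 and 14.4 CPM in WT, and it was the sole S phase member that was highest in IL17KO replicate 2. Pcna, the sliding clamp of DNA polymerase, which repair also uses, was at 62.7, 70.6 and 56.3 CPM in IL17KO, against 57.9, 73.4, 87.3 and 57.9 CPM in WT.

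Of the 4 genes of deoxynucleotide synthesis, 3 had negative fold changes and 0 passed the test. Rrm1, the large subunit of ribonucleotide reductase, is made through much of the cycle. It was at 89.5, 116 and 71.02 CPM in IL17KO, against 93.9, 97.9, 131.5 and 92.7 CPM in WT, with a log2 fold change of −0.17 ± 0.19 (SE), with a 95% interval of −0.61 to 0.26 (edgeR adjusted p = 0.987). Rrm2, the subunit that limits the enzyme in S phase, was at 41.5, 50.9 and 34.6 CPM in IL17KO, against 41.4, 38.4, 62.3 and 43.6 CPM in WT. Tyms, thymidylate synthase, was at 21.1, 25.6 and 16.9 CPM in IL17KO, against 18.8, 19.1, 31.4 and 20.5 CPM in WT. Tk1, thymidine kinase 1, was the exception, at 20.5, 28.5 and 16.7 CPM in IL17KO, against 15.5, 19.5, 29.3 and 18.98 CPM in WT. WT replicate 1 was its lowest library, and its log2 fold change was 0.07 ± 0.24 (SE), with a 95% interval of −0.48 to 0.63 (edgeR adjusted p = 0.992), which turned to −0.019 when libraries were scaled by total counts alone. All 4 were highest in WT replicate 3.

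Among the 9 mitotic regulators 8 had negative fold changes, and 0 passed the test. Foxm1, the transcription factor of late cell cycle genes, was at 33.9, 47.5 and 22.4 CPM in IL17KO, against 32.5, 29.7, 48.4 and 33.8 CPM in WT. Cdk1, the kinase that drives entry into mitosis, was at 40.8, 50.9 and 29.6 CPM in IL17KO, against 40.3, 46.4, 63.7 and 39.03 CPM in WT, and its promoter stretch above holds both kinds of element. These 2 regulators kept the common order, with IL17KO replicate 3 lowest and WT replicate 3 highest. The partners of Cdk1, Ccna2 and Ccnb1 (cyclins A2 and B1), were at 76.5 ± 21.7 CPM in IL17KO (SD, n = 3) and 87.2 ± 16.02 CPM in WT (SD, n = 4), and at 25.2 ± 7.53 CPM in IL17KO (SD, n = 3) and 28.2 ± 5.74 CPM in WT (SD, n = 4). Ccnb2, cyclin B2, was nearly level, at 32.6 ± 8.51 CPM in IL17KO (SD, n = 3) and 33.7 ± 4.53 CPM in WT (SD, n = 4). IL17KO replicate 3 was the lowest library for all 3 cyclins. Cdc20, which activates the anaphase-promoting complex, was at 23.2, 35.7 and 16.1 CPM in IL17KO, against 25.2, 27.97, 34.1 and 23.9 CPM in WT. Plk1, Polo-like kinase 1, had the widest spread of the 42 within IL17KO, at 35.2, 54.8 and 21.7 CPM in IL17KO, against 36.97, 33.04, 54.7 and 33.95 CPM in WT. Aurka, Aurora kinase A of the spindle poles, was at 17.6 ± 6.27 CPM in IL17KO (SD, n = 3) and 19.6 ± 4.22 CPM in WT (SD, n = 4). Ube2c, the ubiquitin-conjugating enzyme of the anaphase-promoting complex, differed from the rest and is taken up below.

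Of the 8 genes of spindle, chromosome structure and cytokinesis 7 had negative fold changes and 0 passed the test. Mki67, which coats mitotic chromosomes and is the common histological marker of cycling cells, stood at 267, 361 and 153 CPM in IL17KO, against 268, 257, 322 and 232 CPM in WT. IL17KO held both the highest and the lowest library, and WT lay between them. Its log2 fold change was −0.05 ± 0.26 (SE), with a 95% interval of −0.65 to 0.54 (edgeR adjusted p = 0.995), 0.21 without IL17KO replicate 3 and 0.03 without WT replicate 3. Top2a, the topoisomerase that untangles sister chromosomes, was at 154, 212 and 99.7 CPM in IL17KO, against 173, 164, 215 and 156 CPM in WT. The motor proteins of the spindle showed the same spread, with Kif11 at 47.1, 57.5 and 29.9 CPM in IL17KO, against 46.9, 44.6, 58.7 and 43.03 CPM in WT. In both Top2a and Kif11, IL17KO replicate 2 and WT replicate 3 were nearly level at the top. Kif20a, a motor of cytokinesis, was at 56.4 ± 20.6 CPM in IL17KO (SD, n = 3) and 58.9 ± 9.26 CPM in WT (SD, n = 4). Kif23, a motor of the central spindle, was at 39.2, 52.9 and 27.0 CPM in IL17KO, against 37.1, 38.8, 45.2 and 34.1 CPM in WT. Its log2 fold change was 0.03 ± 0.21 (SE), with a 95% interval of −0.44 to 0.51 (edgeR adjusted p = 0.995), and −0.04 when scaled by total counts alone. Tpx2, which activates Aurora A on microtubules, was at 62.5, 87.7 and 44.02 CPM in IL17KO, against 72.6, 73.5, 93.1 and 62.01 CPM in WT, with a log2 fold change of −0.22 ± 0.23 (SE), with a 95% interval of −0.74 to 0.30 (edgeR adjusted p = 0.987). In Tpx2 the extremes were again IL17KO replicate 3 and WT replicate 3. Prc1, which bundles microtubules of the central spindle, was at 76.6, 106 and 48.4 CPM in IL17KO, against 85.3, 84.7, 100.4 and 72.7 CPM in WT. Nusap1, a spindle-binding protein, was at 27.1, 30.5 and 22.7 CPM in IL17KO, against 23.7, 27.1, 35.6 and 24.2 CPM in WT. For all 8 genes IL17KO replicate 3 was the lowest of the 7 libraries.

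The 7 genes of the kinetochore, the checkpoint and the passenger complex all had negative fold changes, and 0 passed the test. Bub1, a checkpoint kinase, was at 18.7, 21.9 and 13.7 CPM in IL17KO, against 19.7, 20.5, 27.9 and 19.01 CPM in WT, with a log2 fold change of −0.27 ± 0.20 (SE), with a 95% interval of −0.71 to 0.18 (edgeR adjusted p = 0.987). Bub1b, the BubR1 checkpoint protein, was at 41.4, 58.9 and 28.8 CPM in IL17KO, against 45.98, 46.4, 56.9 and 41.3 CPM in WT. Cenpe, a kinetochore motor, was at 71.4, 92.6 and 42.6 CPM in IL17KO, against 77.5, 78.02, 92.3 and 64.8 CPM in WT, and Cenpf, a kinetochore protein of late G2, at 57.3, 71.1 and 39.3 CPM in IL17KO, against 56.5, 56.8, 60.7 and 54.6 CPM in WT. In WT the 4 Cenpf values lay within 1.11-fold of each other, the narrowest WT spread of the 42. Cenpa, the centromeric histone H3 variant, was at 21.1, 25.1 and 19.7 CPM in IL17KO, against 17.3, 21.7, 30.4 and 22.3 CPM in WT, with WT replicate 1 the lowest library. Aurkb and Birc5, Aurora kinase B and survivin of the chromosomal passenger complex, were at 13.4 ± 4.09 CPM in IL17KO (SD, n = 3) and 15.3 ± 3.42 CPM in WT (SD, n = 4), and at 37.9 ± 10.1 CPM in IL17KO (SD, n = 3) and 39.2 ± 7.34 CPM in WT (SD, n = 4).

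S phase and mitosis genes differed little in how they stood between the genotypes. Their median log2 fold changes were −0.14 for the 18 S phase members and −0.13 for the 24 mitosis members, against 0.00 for all tested genes. The mean log2 level of the S phase members, taken as log2(CPM + 0.5) and set against the mean of the 7 libraries, was −0.10, 0.30 and −0.44 in IL17KO replicates 1 to 3, against −0.12, −0.05, 0.51 and −0.09 in WT replicates 1 to 4. For the mitosis members it was −0.06, 0.34 and −0.52 in IL17KO replicates 1 to 3, against −0.03, 0.02, 0.37 and −0.11 in WT replicates 1 to 4. The level of S phase minus that of mitosis was −0.69, −0.70 and −0.57 in IL17KO and −0.74, −0.72, −0.52 and −0.64 in WT, with means of −0.66 ± 0.07 (SD, n = 3) and −0.65 ± 0.10 (SD, n = 4), so the groups overlapped. These differences compare libraries, since levels of different genes on this scale also depend on transcript length. The phases did part between the 2 libraries with the highest levels. WT replicate 3 exceeded IL17KO replicate 2 for 17 of 18 S phase members (median 1.20-fold) and for 13 of 24 mitosis members (median 1.01-fold), a contrast of single libraries with no test. Members move together, so these counts are not separate observations, and the share over all tested genes was not counted.

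**Figure D3:**
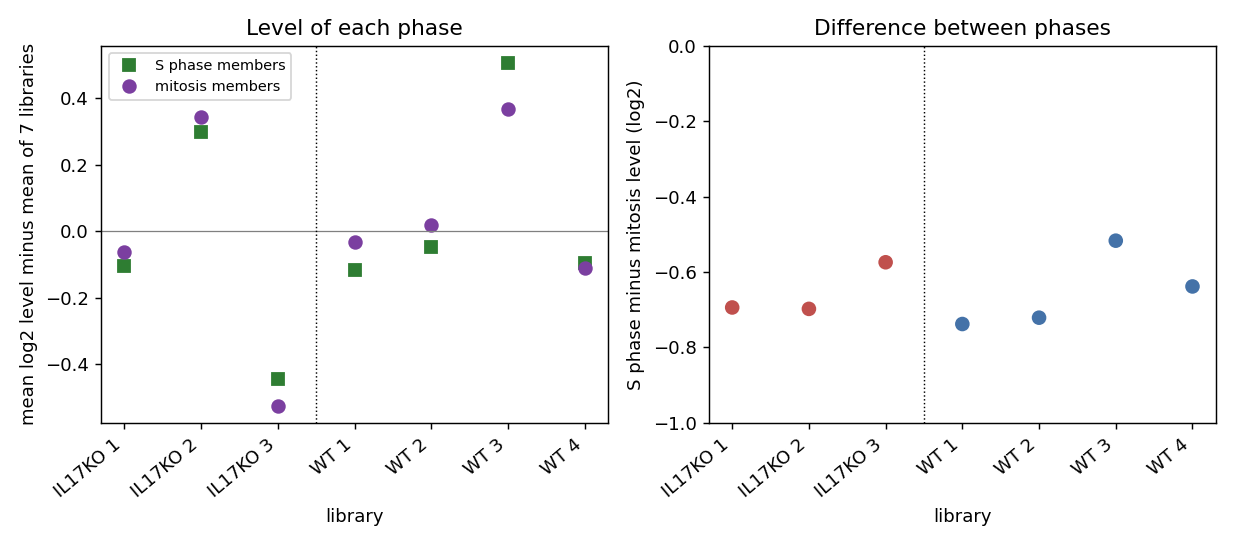
Left, mean log2(CPM + 0.5) of the 18 S phase members (squares) and 24 mitosis members (circles) in each library, minus the mean of the 7 libraries; right, S phase minus mitosis level in each library, IL17KO in red and WT in blue. Both phases are lowest in IL17KO replicate 3, and the difference between them lies from −0.70 to −0.57 in IL17KO and from −0.74 to −0.52 in WT.

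The cell cycle level lay opposite to the muscle fibre level across libraries. Relative to the mean of the 7 libraries, the mean log2 level of the 42 members was −0.08, 0.32 and −0.49 in IL17KO replicates 1 to 3, against −0.07, −0.01, 0.43 and −0.10 in WT replicates 1 to 4. That of the 25 muscle fibre genes was 0.28, −0.44 and 1.10 in IL17KO replicates 1 to 3, against 0.02, 0.14, −1.39 and 0.29 in WT replicates 1 to 4. The library with the most muscle signal, IL17KO replicate 3, had the lowest cell cycle level, and the library with the least, WT replicate 3, the highest. Summed over the 25 genes the muscle signal was 69480, 43010 and 130100 CPM in IL17KO, against 57510, 63180, 22460 and 69760 CPM in WT, and 23 of the 25 had positive fold changes with 0 past the threshold by edgeR. With the muscle level as a covariate, 4 of 42 members were below 0 and their median was 0.07, with 0 members past the threshold by edgeR and Tk1 alone at an unadjusted p under 0.05. In that fit 581 of all 15399 tested genes had an unadjusted p under 0.05. The part of the muscle content in the cell cycle values was not tested, and in bulk tissue fewer cycling cells cannot be told apart from less RNA per cell.

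**Figure D4:**
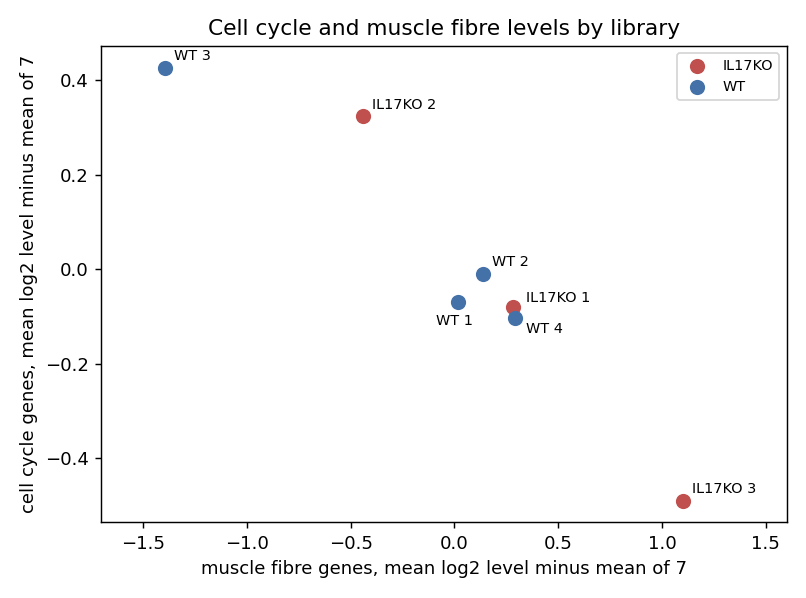
Mean log2 level of the 42 cell cycle genes (y axis) against that of 25 muscle fibre genes (x axis), each minus its mean over the 7 libraries, with 1 point per library, IL17KO in red and WT in blue. IL17KO replicate 3 lies at the lower right and WT replicate 3 at the upper left, and 4 libraries of both groups lie close together in the middle.

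Markers of other cell types that can divide in a wound were measured in the same libraries. For comparison, 49.4% of all tested genes had negative fold changes. By edgeR 0.156% of them passed the adjusted threshold and 3.04% had an unadjusted p under 0.05. The summed level of 12 fibroblast and matrix genes was 45450, 56360 and 27850 CPM in IL17KO, against 46090, 40070, 57820 and 34660 CPM in WT, lowest in IL17KO replicate 3 and highest in WT replicate 3, like the cell cycle genes. Of these 12, 7 had negative fold changes and 1 passed the edgeR test. That gene, named after its values were seen, was Thy1, a surface protein of fibroblasts and also of T cells, at 95.5, 111 and 72.6 CPM in IL17KO, against 227, 263, 291 and 190.5 CPM in WT. The groups did not overlap, and its log2 fold change was −1.39 ± 0.20 (SE; edgeR adjusted p = 0.0464). For 13 monocyte and macrophage genes the sums were 5636 to 6039 CPM in IL17KO and 4378 to 6321 CPM in WT (10 negative, 0 called), and for 8 endothelial genes 636 to 928 CPM in IL17KO and 750.2 to 903 CPM in WT (4 negative, 0 called). The 10 muscle progenitor genes summed to 5743 to 9274 CPM in IL17KO and 4425 to 9926 CPM in WT (1 negative, 0 called, Mymx at an unadjusted p under 0.05). The 10 T and B cell genes summed to 5.68 to 18.3 CPM in IL17KO and 10.7 to 12.7 CPM in WT (2 of 4 tested negative, 0 called), and the 9 oral epithelial genes to 16.4 to 21.4 CPM in IL17KO and 12.9 to 24.3 CPM in WT (1 of 2 tested negative, 0 called). Neutrophil genes (12) summed to 51.3 to 108 CPM in IL17KO and 82.95 to 316.5 CPM in WT (7 of 7 tested negative, median −0.95, 0 called). Of these 7, Mmp9, S100a8 and S100a9 had an unadjusted p under 0.05 by edgeR. Osteoclast genes (7) summed to 237 to 264 CPM in IL17KO and 200 to 751 CPM in WT (7 negative, median −0.68, 0 called), with Mmp9, which stands in both lists, at an unadjusted p under 0.05. Both sums were highest in WT replicate 3. Osteoblast and cartilage genes (10) summed to 101 to 140.3 CPM in IL17KO and 82.4 to 202 CPM in WT (4 of 9 tested negative, 0 called, Col2a1 at an unadjusted p under 0.05), and red blood cell genes (7 found of 8) to 168 to 391.5 CPM in IL17KO and 139 to 662 CPM in WT (5 of 5 tested negative, median −0.51, 0 called). No marker of these lists was at 0 in every library. Without IL17KO replicate 3 and WT replicate 3, an alternative chosen after seeing the data, the median was −0.41 for the neutrophil genes (6 of 7 negative), −0.02 for the osteoclast genes (5 of 7) and −0.21 for the muscle fibre genes (18 of 25). It turned positive for the fibroblast and matrix genes (0.26, 5 of 12 negative) and the red blood cell genes (0.09, 1 of 5). The median was 0.04 for the monocyte and macrophage genes (3 of 13), 0.04 for the endothelial genes (3 of 8) and 0.05 for the muscle progenitor genes (1 of 10). For the osteoblast and cartilage genes it was 0.15 (3 of 9), for the T and B cell genes 0.06 (1 of 4) and for the oral epithelial genes −0.07 (2 of 2). Thy1 was then at −1.14 (edgeR adjusted p = 0.0194), and was the single gene of these lists past the threshold. The part of each cell type in the cell cycle values was not tested.

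Ube2c was the member that did not follow the others. It stood at 60.1, 63.5 and 74.9 CPM in IL17KO, against 56.9, 71.8, 53.97 and 57.2 CPM in WT, so that IL17KO replicate 3, the lowest library for most members, was here the highest and WT replicate 3 the lowest. Its log2 fold change was 0.14 ± 0.14 (SE), with a 95% interval of −0.17 to 0.45 (edgeR adjusted p = 0.987). Its promoter holds a CHR element and CCAAT, like those of other mitosis genes. In the GENCODE M21 annotation of GRCm38, 592 of its 2600 exon bases (22.8%) overlap exons of Tnnc2, fast skeletal troponin C, on the opposite strand. Tnnc2 was at 2163, 1133 and 4575 CPM in IL17KO, against 1840, 2445, 603 and 2252 CPM in WT, and was likewise highest in IL17KO replicate 3 and lowest in WT replicate 3. The labels name a stranded library kit, but the strand setting of the counting is not stated there, and the part of Tnnc2 reads in the Ube2c counts was not tested. Without Ube2c, the mitosis level relative to the mean of the 7 libraries was −0.06, 0.36 and −0.56 in IL17KO replicates 1 to 3, against −0.03, 0.01, 0.39 and −0.11 in WT replicates 1 to 4.

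**Figure D5:**
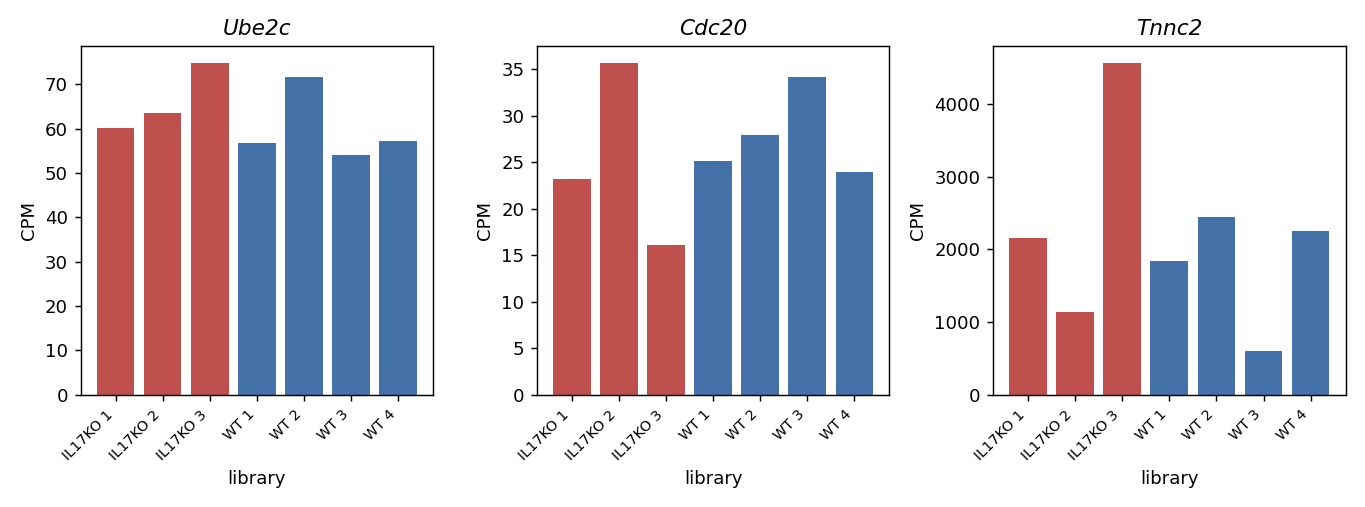
CPM of Ube2c, of Cdc20 and of Tnnc2 in each library, IL17KO in red and WT in blue, each panel on its own scale from 0. Ube2c is highest in IL17KO replicate 3 (74.9 CPM), where Cdc20 is lowest (16.1 CPM) and Tnnc2 highest (4575 CPM).

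Other genes of the pathway, in lists that leave out the 42 members, behaved much as the members did. They were measured in the same 7 libraries and chosen with earlier results of these data known. They are therefore no independent support, and the genes counted below are not separate observations. For comparison, 49.4% of all tested genes had negative fold changes. Of 48 other S phase genes 40 had negative fold changes (median −0.11), 0 passed the edgeR test and 1, Tipin, a replication fork protein, had an unadjusted p under 0.05. That is a share below the 3.04% of all tested genes. Tipin was at 21.9, 23.9 and 19.6 CPM in IL17KO, against 26.8, 32.4, 30.5 and 22.9 CPM in WT. The groups overlapped by 1 IL17KO library. Casp8ap2, a protein needed for histone gene expression, was at 30.5 ± 4.27 CPM in IL17KO (SD, n = 3) and 36.9 ± 4.34 CPM in WT (SD, n = 4), and Slbp, which binds histone mRNA, at 28.2 ± 2.01 CPM in IL17KO (SD, n = 3) and 32.3 ± 2.52 CPM in WT (SD, n = 4). The Slbp groups did not overlap, with every IL17KO library below every WT library (edgeR unadjusted p = 0.106, adjusted p = 0.987). Over all tested genes, 3.89% had groups that did not overlap. Genes named from each list were those with its smallest p, which favours groups that do not overlap. The share per list was not counted. Hells, a chromatin remodeller of replicating cells, was at 24.1 ± 6.61 CPM in IL17KO (SD, n = 3) and 30.4 ± 5.98 CPM in WT (SD, n = 4). Of 64 other G2 and mitosis genes 54 had negative fold changes (median −0.11), and by edgeR 0 passed the adjusted test and 0 had an unadjusted p under 0.05. Tubb4b, a beta-tubulin, had the smallest p in that list, and its groups did not overlap, with IL17KO higher. It was at 213, 196 and 225 CPM in IL17KO, against 181, 178, 153 and 190.5 CPM in WT (edgeR unadjusted p = 0.0612, adjusted p = 0.987). Kif18a, a kinesin of chromosome alignment, Trip13, a checkpoint ATPase, and Gtse1, a G2 protein, followed, with group means of 6.69 ± 0.9501 CPM in IL17KO (SD, n = 3) and 8.47 ± 1.699 CPM in WT (SD, n = 4), 11.8 ± 3.95 CPM in IL17KO (SD, n = 3) and 15.2 ± 3.27 CPM in WT (SD, n = 4), and 10.9 ± 3.39 CPM in IL17KO (SD, n = 3) and 13.6 ± 3.15 CPM in WT (SD, n = 4).

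Of 17 D cyclins, G1 kinases and E2F partners 14 had negative fold changes (median −0.08), and by edgeR 0 passed, with 0 at an unadjusted p under 0.05. Their mean log2 level spanned 0.23 in IL17KO and 0.29 in WT, against 0.81 and 0.53 for the 42 members, but in this list single genes moved both ways between libraries, so the span of the mean says nothing of single genes. Skp2, which marks the inhibitor p27 for destruction, was at 14.8 ± 2.84 CPM in IL17KO (SD, n = 3) and 18.1 ± 2.201 CPM in WT (SD, n = 4). Tfdp2 and E2f4, a dimer partner and a repressor form of E2F, were at 32.5 ± 7.56 CPM in IL17KO (SD, n = 3) and 26.2 ± 4.68 CPM in WT (SD, n = 4), and at 50.5 ± 3.895 CPM in IL17KO (SD, n = 3) and 45.1 ± 3.29 CPM in WT (SD, n = 4). The E2f4 groups did not overlap, with every IL17KO library above every WT library (edgeR adjusted p = 0.987). Tfdp2 was highest in IL17KO replicate 3 and lowest in WT replicate 3. E2f6, another repressor, was at 28.7, 25.3 and 52.98 CPM in IL17KO, against 27.1, 24.2, 20.7 and 36.8 CPM in WT. Of 22 CDK inhibitors and quiescence genes 9 had negative fold changes (median 0.04), and by edgeR 0 passed, while Btg1 had an unadjusted p of 0.0437 (adjusted p = 0.987). It was the 1 gene of the 22 under 0.05, where 3.04% of all tested genes were. Btg1, an antiproliferative gene, was at 104, 106 and 96.8 CPM in IL17KO, against 115, 131, 151 and 113 CPM in WT, and the groups did not overlap. Over all tested genes, 3.89% had groups that did not overlap, and the genes named here were picked by smallest p. Ccng1, cyclin G1, a target of p53, was at 347, 199 and 658 CPM in IL17KO, against 309, 282, 187 and 362 CPM in WT. It was highest in IL17KO replicate 3 and lowest in WT replicate 3, the reverse of the cell cycle members. Rbl2, the p130 pocket protein of resting cells, was at 54.5, 49.7 and 74.97 CPM in IL17KO, against 57.1, 52.2, 44.2 and 52.1 CPM in WT, with the same extremes. Ccng2, cyclin G2, was at 24.9 ± 3.77 CPM in IL17KO (SD, n = 3) and 21.4 ± 1.95 CPM in WT (SD, n = 4).

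Leaving out IL17KO replicate 3 and WT replicate 3 was tried for these lists after the data had been seen. Then 11 of the 48 other S phase genes were below 0 (median 0.14) and 8 of the 64 other G2 and mitosis genes (median 0.15), so both lists changed sides as the members did. Like the members, both lists had their lowest mean level in IL17KO replicate 3 and their highest in WT replicate 3. Leaving these libraries out thus had to move the difference of the mean levels upward. Of the 17 D cyclins and partners 6 were below 0 (median 0.04), and of the 22 inhibitors and quiescence genes 10 (median 0.01). By edgeR 0 genes of these 4 lists passed the adjusted threshold, while Dlgap5, Pimreg and Btg2 had an unadjusted p under 0.05 and Tipin and Btg1 no longer did. In that setting 515 of all 15561 tested genes had an unadjusted p under 0.05. Among the genes named from these lists, Gtse1 (0.06), Tfdp2 (−0.006), E2f6 (−0.13), Rbl2 (−0.05) and Ccng1 (−0.22) changed sign.

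Levels of different members were compared per length, as TPM on the union of all exons annotated for a gene in GENCODE M21. This union can be longer than a single transcript, and it was 11012 bases for Rrm1. The order of members therefore holds for this length alone and was not checked on single transcripts. The part of Tnnc2 reads in the Ube2c counts was also not tested. Mki67 stood at 75.1 ± 41.2 TPM in IL17KO and 83.4 ± 20.9 TPM in WT, Pcna at 73.9 ± 21.4 TPM in IL17KO and 89.7 ± 27.5 TPM in WT and Ube2c at 69.7 ± 8.47 TPM in IL17KO and 70.4 ± 6.62 TPM in WT (SD, n = 3 and n = 4), which are the highest of the 42. Ccnb2 and Ccna2 followed at 60.7 ± 25.6 TPM in IL17KO and 68.4 ± 16.8 TPM in WT and at 53.6 ± 24.3 TPM in IL17KO and 66.6 ± 20.01 TPM in WT, and none of these neighbours differed by more than its spread. The lowest were Cdc6, at 4.51 ± 2.16 TPM in IL17KO and 5.695 ± 2.31 TPM in WT, and Mybl2, at 6.53 ± 3.59 TPM in IL17KO and 8.34 ± 4.99 TPM in WT.

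Some of the counts are uncertain by annotation. Exons of 10 members overlap a protein-coding gene on the opposite strand. The share of exon bases was 29.3% for Kif20a (with Cdc23), 22.8% for Ube2c (with Tnnc2), 17.4% for Ccne2 (with Ints8), 12.5% for Ccna2 (with Exosc9) and 11.1% for Prc1 (with Rccd1), and smaller for Mcm7, Cdc45, Nusap1, Cdc20 and Tk1. Of the 42 members 7 have pseudogene copies at 95% identity or more over at least 200 bases, among them Ccnb1, Mybl2, Pcna and Mcm7. The 11 pseudogene copies had at most 1 count in any library. Tyms, at 353 to 656 counts, also matches transcripts that are not pseudogenes under the same rule. The most abundant are Reep3 (1826 to 2662 counts, 355 bases aligned), Map3k2 (403 to 833 counts, 357 bases) and Wdr59 (219 to 429 counts, 358 bases). The part of such reads in the Tyms counts was not tested.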

How the data were processed

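For 7 libraries the authors deposited whole-number counts of reads for each gene. They also deposited a normalized signal, from DESeq2 per the file headers, in which each library's counts are scaled by a single factor. GRCm39 is the build in the submitters' processing notes, beside the tools DESeq2, HTSeq, TopHat, cutadapt, FastQC and bcl2fastq; their versions, settings and strand option were not given. Columns carry the library names of the labels' descriptions, not the sample titles, and were joined through them. Of 55414 gene rows 6250 are blank and were not used.

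The main test on the deposited counts was edgeR's, version 4.0.16 under R 4.3.3 (quasi-likelihood, two-sided, TMM, filterByExpr, robust), with Benjamini-Hochberg adjustment over all 15399 genes kept and a threshold of 0.05. SE is the log2 fold change over the square root of F, and 95% intervals use the t distribution. The normalized signal was not tested. Total counts of 18539904 to 26271176 set a floor of 3 counts at 0.114 to 0.162 CPM, for counting error only. No library was a repeat deposit, since replicate pairs differed by a mean chi-square per gene of 23.1 or more.

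The members, lists and named genes were chosen with earlier results of these data known, so no set test or p over the members is given. The rule names all 42 members and, of each other pathway list, up to 4 genes with the smallest p. Alternatives were DESeq2 1.42.0, limma 3.58.1 (voom with quality weights per library), RLE and total-count scaling, no filter, 1 CPM in 3 libraries, a replicate block, the muscle level as a covariate, a threshold of 0.10, and libraries left out. TPM and overlaps used GENCODE M21 (GRCm38), an older build, which had lengths for 48309 of 49164 gene rows. Copies were sought with BLAST 2.17.0. Counts of 15097 genes were simulated for the IL17KO and WT libraries, each gene drawn independently of the others. In these counts edgeR recovered 96 of 100 genes changed 4-fold and 57 of 97 changed 2-fold, with 8 false calls among 161. It called 0 where none was changed. Patterns that genes share across libraries were not simulated, so the rates need not hold for the real comparison.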

Additional observations from a re-analysis of the deposited data

Results flagged for a closer look

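In WT, 6 of the 42 members and 2 of 4 list levels had a library far from the other 3, by Dixon's test at the 95% level, and in each case it was WT replicate 3. Chance flags about 1 in 20 such groups, and these are not independent. The values in WT replicate 3 were 20.6 CPM for Mybl2, 58.9 CPM for Mcm5, 100.8 CPM for Mcm6, 131.5 CPM for Rrm1, 31.4 CPM for Tyms and 27.9 CPM for Bub1. The mean log2 level of the S phase members was 5.33 in this library, above the other WT libraries, and that of the muscle fibre genes was 9.31, below them. Groups of 3, such as IL17KO, were not examined in this way.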

How the results depend on the processing

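Under every alternative run 0 members passed the adjusted threshold, and the closest adjusted p was 0.571, by edgeR without IL17KO replicate 2. There 5 members had an unadjusted p under 0.05, beside 1225 of all 15510 genes tested. The number of members below 0 was 39, and it stayed between 38 and 41 with RLE or total-count scaling, DESeq2, either other filter, the replicate block and 5 of the 7 single libraries left out. It was 29 with limma voom and quality weights together, 4 when the muscle level was a covariate, 1 when IL17KO replicate 3 and WT replicate 3 were both left out, and ranged from 15 to 41 with 1 library left out. With both of those libraries left out the median was 0.20 over all members and 0.20 over S phase members. With 1 library left out these medians ran from −0.39 to 0.046 and from −0.37 to 0.02. The genes called over the whole table were 24, against 58 by DESeq2, 65 by limma voom with quality weights, 42 with no filter, 30 with both libraries left out, 2 with the replicate block and 8 to 21 with 1 library left out.

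Signs that turned round, all of them short of the threshold, were as follows. With the muscle level as a covariate the log2 fold change was 0.015 for Rrm1, 0.14 for Mki67 and 0.074 for Mcm6. With both libraries left out it was 0.051 for E2f1, 0.0067 for Mcm4, 0.11 for Rrm1, −0.0047 for Ube2c, 0.11 for Tpx2, 0.039 for Bub1, 0.31 for Mki67 and 0.21 for Mcm6, while Tk1 and Kif23 kept their sign at 0.44 and 0.33. Mki67 was at 0.025 by limma voom with quality weights, which changed the test and the weights (0.487 for IL17KO replicate 3 and 0.386 for WT replicate 3) at once, and total-count scaling gave −0.019 for Tk1 and −0.045 for Kif23. With 1 library left out, values ran from −0.36 to 0.21 for Mki67, from −0.43 to 0.015 for Mcm6, from −0.16 to 0.27 for Tk1 and from −0.23 to 0.24 for Kif23. They ran from −0.47 to −0.087 for E2f1, from −0.48 to −0.12 for Mcm4, from −0.37 to −0.025 for Rrm1 and from −0.50 to −0.012 for Tpx2. The cause was not tested.

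Deviations of same-numbered libraries correlated at 0.14, −0.30 and −0.56 across genes. The replicate numbers follow the sample titles, and 1 axis held 50.1% of the variance. These values therefore cannot settle whether the libraries were paired. With the replicate block 40 members were below 0 (median −0.22), 0 passed by edgeR, and Kif23 stood at −0.069. The members had 126 counts or more in each library. In simulated data with 3 and 4 libraries 57 of 97 changes of 2-fold were called. Each gene was drawn independently there, while the members move together, so this rate need not hold for the members.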
